A study of Drosophila melanogaster with 3 samples.

Results

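Aminoacyl-tRNA synthetases are the enzymes that load each tRNA with its amino acid, and their genes were examined for binding of Hsf, the transcription factor of the heat shock response, in Drosophila melanogaster embryos. The genes were chosen by name: protein-coding genes whose symbol is a 3-letter amino acid code, or GluPro, followed by RS. This gave 33 genes of the 13945 protein-coding genes on the 6 main chromosome arms. Of these, 18 have no suffix and are called cytosolic here, and 15 carry the suffix -m and are called mitochondrial. The split follows the symbols alone: GlyRS, HisRS, LysRS and ThrRS have no counterpart with -m among the members, and neither has GlnRS. A gene called cytosolic here may also serve mitochondria. The names alpha-PheRS and beta-PheRS, for the subunits of the cytosolic phenylalanine enzyme, do not match the rule, so these genes are described apart.

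The study measured chromatin immunoprecipitation followed by sequencing, in which DNA bound by a protein is pulled down with an antibody and read. All 3 samples belong to 1 group, biological replicates 1, 2 and 3 of whole embryos of 0 to 24 h, both sexes pooled, from a fly line with a stable transgene for Hsf tagged with GFP at the C terminus, precipitated through the GFP tag. This age range spans the whole of embryonic development, and a whole embryo mixes all of its cell types. No heat treatment is named, and whether the line still makes untagged Hsf is not given in the sources used here. The authors' pooled list holds 30000 candidate regions in dm6, and their optimal list holds the 5756 of these that passed IDR, a filter on whether regions rank alike in the replicates. These are also the 5756 regions with the highest pooled signal, so a region in the optimal list need not reach that rank in each replicate. The lists of the replicates hold 28225 to 30000 regions. The signal of a region is the authors' score, which is not comparable between lists, and the number of reads behind it is unknown. No input or untagged control was analysed here. For each gene the strongest region with its summit within 500 bp of a transcription start site (TSS) was taken, and "optimal peak" below means that this region is in the optimal list.

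Cytosolic synthetases charge the tRNAs used by the ribosomes of the cytosol, while the mitochondrial enzymes are encoded in the nucleus, imported, and serve the ribosome of the organelle. The enzymes fall into a pair of unrelated folds, class I and class II, and GluProRS joins an enzyme of each class in 1 protein. In human cells, some of the cytosolic synthetases form the multisynthetase complex together with scaffold proteins, and the genes for the glycine and lysine enzymes each give a cytosolic and a mitochondrial form. The amino acid response, in which the kinase Gcn2 senses uncharged tRNA and the factor ATF4 is made, is known to raise synthetase genes in several animals. Hsf itself binds inverted repeats of GAA units, the heat shock element.

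The sequences at which the strongest regions were centred are shown for some members, since they hold the promoter motifs counted further on. The first 6 are the bases within 100 bp of the summit that lie outside annotated exons, read from the RefSeq genome of release 6 on the strand of the gene. They come from IleRS (3L:22288433-22288633), ThrRS (2L:12103475-12103675), GlyRS (3L:15095031-15095141), ArgRS-m (3R:7886814-7887014) and LeuRS-m (3L:4825688-4825852) on the plus strand and from AsnRS (2L:19131955-19132121) on the minus strand. The capitals mark the DREF motif in IleRS, the TATA box in AsnRS and GlyRS, the TATA box on the other strand in ThrRS, the GAGA factor motif in ArgRS-m and the E-box in LeuRS-m. At SerRS nearly all of this stretch is annotated exon, so only 1 of its TATA box matches is printed, with 9 bases on each side (2L:3037365-3037389, minus strand).
IleRS: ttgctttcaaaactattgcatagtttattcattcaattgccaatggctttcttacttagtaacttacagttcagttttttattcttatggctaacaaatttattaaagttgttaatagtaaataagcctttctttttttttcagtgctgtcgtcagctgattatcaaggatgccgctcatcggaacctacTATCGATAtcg
ThrRS: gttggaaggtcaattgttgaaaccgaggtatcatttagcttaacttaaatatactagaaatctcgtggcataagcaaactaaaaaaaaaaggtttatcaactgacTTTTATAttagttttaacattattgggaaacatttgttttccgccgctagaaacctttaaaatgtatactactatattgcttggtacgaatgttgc
AsnRS: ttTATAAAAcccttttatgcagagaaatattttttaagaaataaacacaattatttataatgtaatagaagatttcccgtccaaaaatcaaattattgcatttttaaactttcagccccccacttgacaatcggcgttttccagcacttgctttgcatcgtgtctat
GlyRS: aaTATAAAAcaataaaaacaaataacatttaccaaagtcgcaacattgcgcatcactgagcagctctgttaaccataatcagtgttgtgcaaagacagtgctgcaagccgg
ArgRS-m: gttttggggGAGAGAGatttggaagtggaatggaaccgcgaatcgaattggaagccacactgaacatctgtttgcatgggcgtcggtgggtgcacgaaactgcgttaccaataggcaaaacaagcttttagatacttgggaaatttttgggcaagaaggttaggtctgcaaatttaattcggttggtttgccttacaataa
LeuRS-m: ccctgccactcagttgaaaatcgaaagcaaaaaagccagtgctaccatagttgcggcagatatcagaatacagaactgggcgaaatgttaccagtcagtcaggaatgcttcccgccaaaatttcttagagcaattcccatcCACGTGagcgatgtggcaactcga
SerRS: aacagaaaaTATAAAAaaacattat

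Shorter stretches compare the matches to 2 motifs between members. These are the match in capitals with 9 bases on each side, on the strand of the motif, and they were picked after the matches had been seen. The DREF motif, TATCGATA, is bound by a factor known from genes of cell proliferation. Within 100 bp of the summit it was found at 4 of 18 cytosolic and 0 of 10 mitochondrial members with a region. This difference was not tested, and the motif was found at 9.76% of the regions of all protein-coding genes. The 4 are AlaRS (2L:8381767-8381792), ArgRS (X:15844163-15844188), IleRS (3L:22288614-22288639) and TrpRS (3R:9266960-9266985).
AlaRS: tggatgagaTATCGATAgatttagag
ArgRS: cacgtcgccTATCGATAacgataaca
IleRS: ggaacctacTATCGATAtcgcgaacc
TrpRS: tgttaaaaaTATCGATAatgagaaat

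The M1BP motif, GGTCACACT with at most 1 mismatch, is known from promoters of housekeeping genes. Within 100 bp of the summit it was found at 7 members (25.0%), against 14.0% of the regions of all protein-coding genes. Of the 7, 5 are shown: GlnRS (3R:25265706-25265732), HisRS (X:18515395-18515421), LysRS (X:9608949-9608975), AspRS-m (2L:16827074-16827100) and ProRS-m (3L:2652077-2652103). GlnRS, AspRS-m and ProRS-m hold the exact motif, and HisRS and LysRS hold the same variant of it.
GlnRS: gtccggaacGGTCACACTgacctgcac
HisRS: gcgacgaacGGTCACATTgaccaccgc
LysRS: ttgacatctGGTCACATTgcactagac
AspRS-m: gcggcatatGGTCACACTtcatcgctg
ProRS-m: tatcggcccGGTCACACTgatttctag

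Cytosolic synthetase genes had an optimal peak more often than mitochondrial ones. Of the 18 cytosolic genes, 13 had an optimal peak (72.2%, 95% Wilson interval 49.1 to 87.5), and the other 5 had a weaker candidate region. Without GlyRS, HisRS, LysRS and ThrRS, and with GlnRS kept, it was 11 of 14 (78.6%), a count added after seeing the data. Of the 15 mitochondrial genes, 4 had an optimal peak (26.7%, 10.9 to 52.0), 6 had a weaker candidate and 5 had none. Over all protein-coding genes the share with an optimal peak was 25.9%, and it was 45.7% among those with a candidate region at a TSS, so the mitochondrial share was close to that of all genes and the cytosolic share was above it. For all 33 synthetases the count was 17 (51.5%, 35.2 to 67.5). These intervals cover counting error over genes only, and the members were not tested as a list. The count depended on how often a peak had to recur. When the optimal region also had to lie among the 5756 strongest of both remaining replicates, it was 12 without replicate 1, 11 without replicate 2 and 10 without replicate 3. For the cytosolic genes these counts were 10, 10 and 8, and for the mitochondrial genes 2, 1 and 2.

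**Figure D1:**
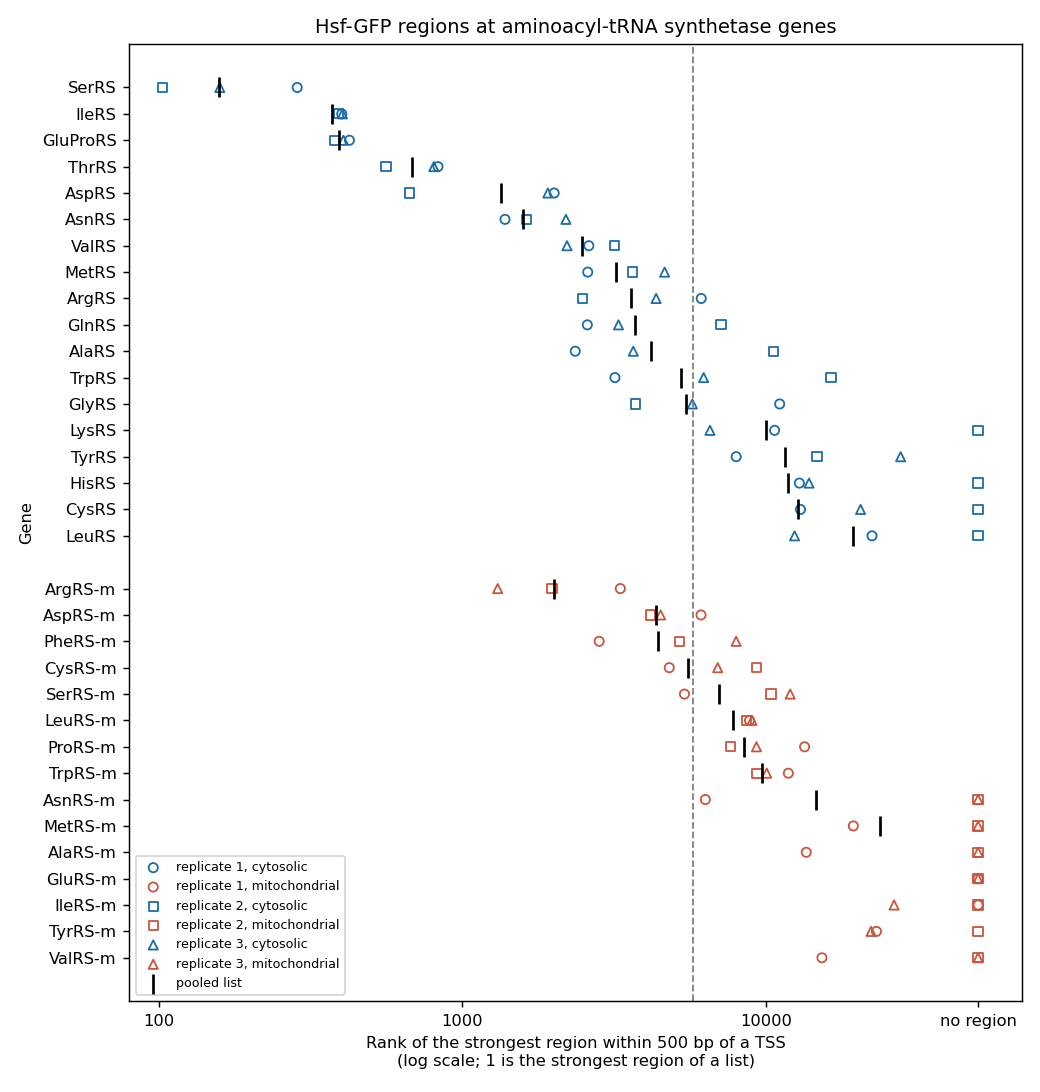
Rank of the strongest region within 500 bp of a TSS of each synthetase gene, on a log scale, in the lists of replicate 1 (circles), replicate 2 (squares) and replicate 3 (triangles) and in the pooled list (black bars), cytosolic genes in blue and mitochondrial genes in red. The dashed line marks rank 5756, and 13 cytosolic and 4 mitochondrial genes have their pooled bar to the left of it.

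The strongest region of the family was at SerRS, which charges tRNA with serine (FBgn0031497, 2L:3037192-3037572). Its pooled signal was 767.8, rank 158 of the 30000, and its summit lay 1 bp upstream of the SerRS start and 7 bp from a start of CG17260, in an intron of that gene. In replicates 1, 2 and 3 the signal was 228.9, 331.0 and 205.4, with ranks of 286, 103 and 159. The region was thus near the top of every list.

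IleRS and GluProRS followed with nearly the same values. At IleRS, the isoleucine enzyme gene (FBgn0027086, 3L:22288394-22288653, intergenic), the pooled signal was 527.8 and the ranks in the replicates were 401, 392 and 403. At GluProRS, which encodes the fused enzyme for glutamate and proline (FBgn0005674, 3R:23958340-23958704, intergenic), the signal was 512.9 and the ranks were 425, 380 and 406. These 2 genes had the smallest ratio of the highest to the lowest replicate rank among the members with an optimal peak, and their summits lay 132 and 135 bp upstream of the start. Each shares its upstream region with a divergent neighbour, IleRS with Hem, a gene of the actin-regulating WAVE complex, and GluProRS with AP-1sigma, a clathrin adaptor gene.

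ThrRS, AspRS and AsnRS made up the rest of the strongest 6 cytosolic genes. ThrRS, the threonine enzyme gene (FBgn0027081, 2L:12103503-12103723, intergenic), had a pooled signal of 386.9 and ranks of 832, 561 and 806. AspRS, the aspartate enzyme gene (FBgn0002069, 2R:12879830-12880245, in an intron of AspRS and Nmda1), had a signal of 273.6 and ranks of 2008, 670 and 1914. Its summit lay 246 bp upstream of an AspRS start inside the gene and was nearer to a start of Nmda1, at 192 bp. AsnRS, the asparagine enzyme gene (FBgn0086443, 2L:19131813-19132228, intergenic), had a signal of 244.4 and ranks of 1383, 1628 and 2195. All 3 genes lay among the 5756 strongest regions in all 3 replicates, as did the genes above.

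Signals of the other 7 cytosolic genes with an optimal peak ran from 101.6 to 185.9. ValRS (185.9) and MetRS (154.0) were among the 5756 strongest regions in all 3 replicates, with ranks of 2612, 3179 and 2213 for ValRS and 2590, 3639 and 4640 for MetRS. ArgRS (141.8), GlnRS (138.8), AlaRS (125.8) and GlyRS (101.6) reached that rank in 2 replicates each. At ArgRS replicate 1 fell outside it, at rank 6124, and at GlyRS replicate 1 ranked 11103 while replicates 2 and 3 ranked 3713 and 5727. At GlnRS and AlaRS it was replicate 2 that fell outside, at ranks 7111 and 10569. TrpRS (104.8) reached it in replicate 1 alone, with ranks of 3184, 16390 and 6239. GlyRS, the glycine enzyme gene (FBgn0027088, 3L:15094923-15095338, intergenic, summit 11 bp upstream of the start), was close to the lowest signal in the optimal list, 97.0.

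The 5 cytosolic genes without an optimal peak were LysRS (58.8), TyrRS (51.6), HisRS (50.5), CysRS (47.4) and LeuRS (34.1). None of them was among the 5756 strongest regions of any replicate. Replicate 2 held no region at LysRS, HisRS, CysRS or LeuRS, while replicates 1 and 3 held one at each of these genes. The best rank among these 5 genes was 6544, of LysRS in replicate 3.

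Among the mitochondrial genes ArgRS-m, the arginine enzyme gene of the organelle (FBgn0037526, 3R:7886706-7887121, intergenic), stood highest, with a pooled signal of 211.4. Its signal was 62.5, 73.2 and 75.4 in replicates 1, 2 and 3, and its ranks were 3316, 1976 and 1308. It was the only mitochondrial gene among the 5756 strongest regions in all 3 replicates.

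The other mitochondrial genes with an optimal peak were AspRS-m, PheRS-m and CysRS-m. AspRS-m (FBgn0051739, 2L:16826847-16827262, intergenic) had a signal of 121.7 and ranks of 6116, 4178 and 4503. PheRS-m (FBgn0275436, 2R:13967935-13968350, intergenic) had a signal of 120.2 and ranks of 2824, 5188 and 7982. Each of these was outside the 5756 strongest in 1 replicate, replicate 1 for AspRS-m and replicate 3 for PheRS-m. CysRS-m (FBgn0033900, 2R:14161207-14161622, intergenic) had a signal of 100.4, the lowest of the 17 optimal members, and ranks of 4806, 9320 and 6940.

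Below the lowest optimal signal, the next members were SerRS-m and LeuRS-m. SerRS-m (FBgn0021750, 3R:15340075-15340490, in an intron of Nagk, summit 384 bp upstream of the start) had a signal of 81.8 and ranks of 5394, 10391 and 12025. LeuRS-m (FBgn0027085, 3L:4825555-4825970, intergenic) had a signal of 74.3 and close ranks of 8835, 8633 and 9003. ProRS-m (68.9), TrpRS-m (60.5), AsnRS-m (42.0) and MetRS-m (29.2) had weaker candidates.

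AlaRS-m, GluRS-m, IleRS-m, TyrRS-m and ValRS-m had no pooled candidate within 500 bp of a TSS. The nearest candidate summit was 1413 bp away at AlaRS-m, 1306 bp at GluRS-m, 5485 bp at IleRS-m, 1184 bp at TyrRS-m and 3916 bp at ValRS-m. GluRS-m had no region in any replicate list either, and the other 4 had weak ones in 1 or 2 replicates, ranking 13583 at best.

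The replicates gave the same order of the 2 compartments. The share of cytosolic genes among the 5756 strongest regions was 61.1%, 55.6% and 66.7% in replicates 1, 2 and 3, and that of mitochondrial genes was 26.7%, 4 of 15, in replicate 1, 3 of 15 in replicate 2 and 13.3%, 2 of 15, in replicate 3. All protein-coding genes stood at 25.7%, 24.9% and 26.4%. The difference between the compartments was 41.1 ± 10.6 percentage points (SD, n = 3), higher for cytosolic genes in 3 of 3 replicates. It had p = 0.25 by an exact permutation test (sign flips over replicates, two-sided; adjusted p = 0.3 over 6 such comparisons), the smallest value that 3 replicates allow, so the design cannot pass the usual threshold. The p-value takes this value whenever the 3 differences share a sign, whatever their size, and it covers only these 3 samples of 1 fly line. Cytosolic genes exceeded all protein-coding genes by 35.4 ± 4.82 points, with the same exact p and adjusted p, while mitochondrial genes differed from them by -5.67 ± 7.03 points, with 1 replicate above and 2 below (exact p = 0.5).

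**Figure D2:**
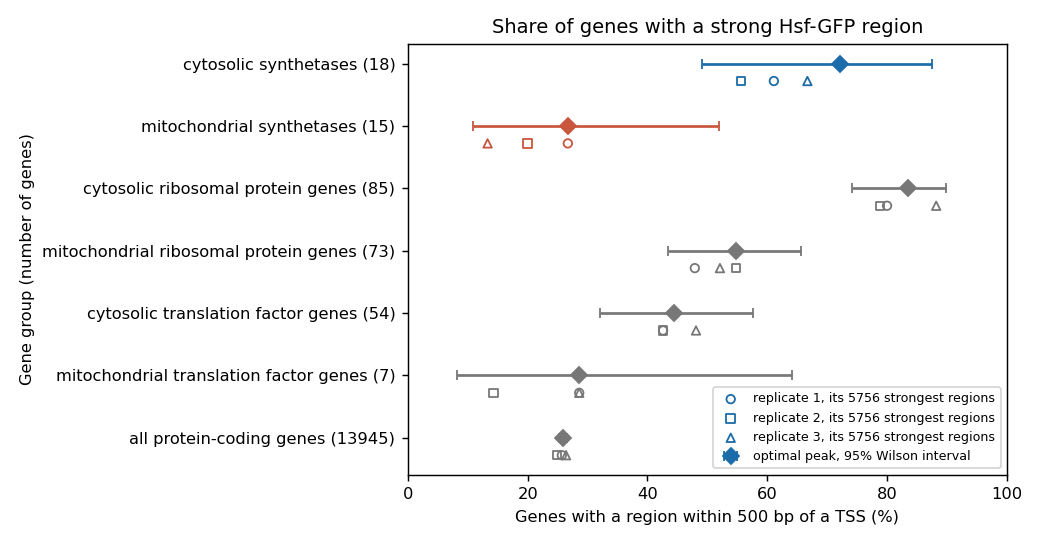
Share of genes in percent whose strongest region at a start is an optimal peak (diamonds, with 95% Wilson intervals) and with a region among the 5756 strongest of replicate 1 (circles), 2 (squares) and 3 (triangles), by gene group. Cytosolic synthetases (72.2%) lie above mitochondrial synthetases (26.7%) and all protein-coding genes (25.9%), and below cytosolic ribosomal protein genes (83.5%).

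For 12 amino acids a gene of each compartment carried the name of that amino acid alone, which allowed a comparison within an amino acid. Glutamate and proline were left out of these 12, since GluProRS (512.9, optimal) encodes both cytosolic enzymes, while GluRS-m had no candidate and ProRS-m a weak one (68.9). The cytosolic gene had the higher pooled signal in 9 of the 12, namely Ala, Asn, Asp, Ile, Met, Ser, Trp, Tyr and Val, where a gene without a candidate region was counted as the lower. This applied to the mitochondrial gene for Ala, Ile, Tyr and Val. Of the 8 amino acids with a region at both genes, the cytosolic gene was higher in 5 and the mitochondrial gene in 3. In 7 of the 12 the cytosolic gene alone had an optimal peak. The largest gap was for serine, where SerRS had a signal of 767.8 and SerRS-m one of 81.8. The mitochondrial gene was higher for Arg (211.4 against 141.8), Cys (100.4 against 47.4) and Leu (74.3 against 34.1), and it also ranked higher in each of the 3 replicates for these amino acids. The cytosolic gene ranked higher in 9, 8 and 8 of the 12 in replicates 1, 2 and 3. The order turned in replicate 2 for Trp, where TrpRS ranked 16390 and TrpRS-m 9352, and in replicate 3 for Tyr.

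**Figure D3:**
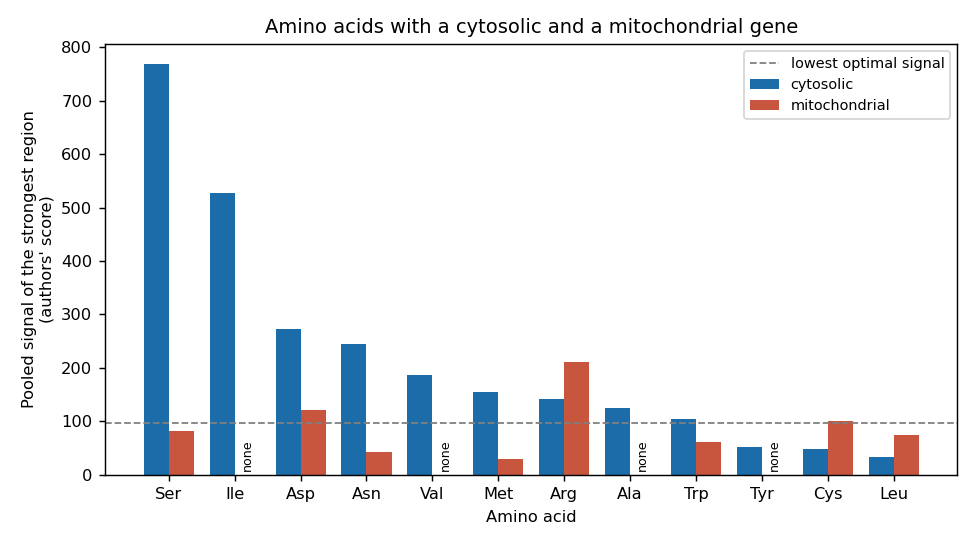
Pooled signal of the strongest region (the authors' score) for the 12 amino acids with a cytosolic (blue) and a mitochondrial (red) gene, "none" where no candidate region lay within 500 bp of a TSS. The dashed line is the lowest signal in the optimal list, 97.0, and the cytosolic bar is the taller in 9 of the 12, of which 4 have no region at the mitochondrial gene.

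The counts were also split by enzyme class and by the human complex. Among cytosolic genes, 6 of 9 class I enzymes and 6 of 8 class II enzymes had an optimal peak, and so did GluProRS. Among mitochondrial genes it was 2 of 9 class I and 2 of 6 class II, and over all protein-coding genes 25.9%. The 8 genes whose human counterparts belong to the multisynthetase complex had an optimal peak in 6 (75.0%), and the 10 other cytosolic genes in 7 (70.0%). LeuRS and LysRS were the complex members without one. All 8 complex genes had the start of another protein-coding gene, on the other strand, within 500 bp upstream. This was so for 6 of the 10 other cytosolic genes. These subgroups were set up after the values of the members had been seen.

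Summits lay mostly just upstream of the start. Of the 28 members with a candidate region, 25 had the summit upstream of the nearest start, against 76.4% of the protein-coding genes with a region. All 17 members with an optimal peak were among the 25, AspRS by a start that lies inside the gene. The 3 downstream summits, at LeuRS, MetRS-m and TrpRS-m, were all 250 to 268 bp inside the gene and not optimal. The median distance was 131.5 bp over the members and 126.0 bp over all protein-coding genes with a region. The farthest was ValRS at 479 bp, whose summit lay 34 bp from a start of Kdm4B, a histone demethylase gene, and with a limit of 200 bp ValRS no longer had an optimal peak.

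**Figure D4:**
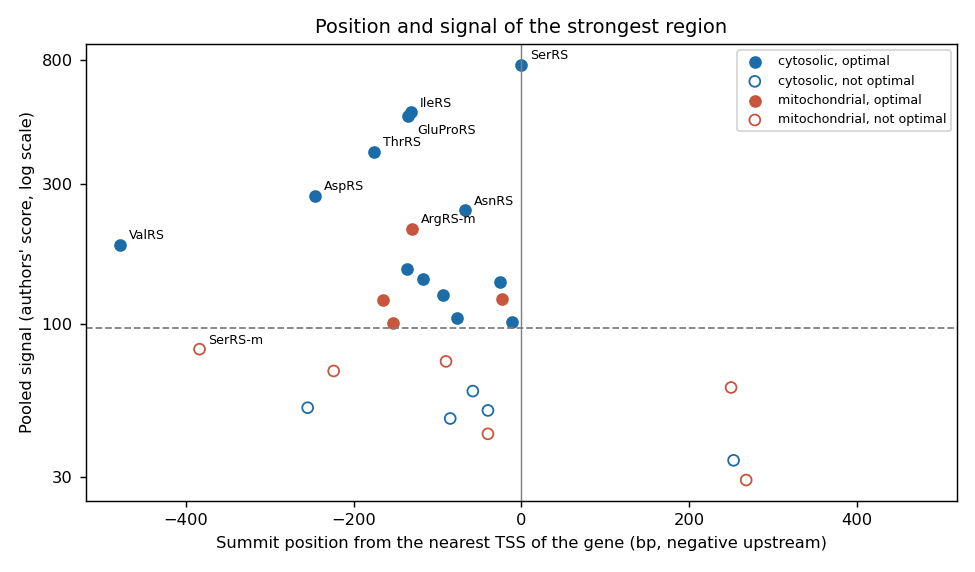
Position of the summit from the nearest TSS of the gene in bp (negative is upstream) against pooled signal (the authors' score, log scale) for the 28 members with a candidate region, cytosolic in blue and mitochondrial in red, filled where the region is an optimal peak. All 17 filled points lie upstream of the start and above the dashed line at 97.0.

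Many synthetase genes stood head to head with another protein-coding gene, that is, with the start of a gene on the other strand within 500 bp upstream. This was the case for 21 of the 33 (63.6%), against 27.4% of all protein-coding genes, and it was more frequent among the cytosolic members (14 of 18) than among the mitochondrial ones (7 of 15). Genes head to head had an optimal peak more often in general, 51.9% of them against 16.1% of the other protein-coding genes. Among members head to head, 11 of 14 cytosolic and 2 of 7 mitochondrial genes had an optimal peak. Among the other members it was 2 of 4 and 2 of 8. With the limit of 500 bp the cytosolic share was thus the higher in both groups of genes. Among the members not head to head this rested on ValRS, whose summit lay 34 bp from a start of Kdm4B. With a limit of 200 bp ValRS no longer had an optimal peak. In 11 of the 21 members whose summit lay within 500 bp of another gene's start, that start was the nearer one, as at LysRS, where the summit lay 4 bp from a start of Hecw and 58 bp from its own. A region between 2 starts cannot be assigned to either gene from these lists. With a region near no other protein-coding start, only 2 cytosolic and 5 mitochondrial genes remained, with median signals of 86.6 and 81.8, against 140.3 and 78.1 for all 18 and 10 genes with a region.

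The number of starts also differed, since 11 of the 18 cytosolic and 13 of the 15 mitochondrial genes had a single annotated TSS. Among these, 7 of 11 cytosolic and 3 of 13 mitochondrial genes had an optimal peak. Over all protein-coding genes, 10246 of 13945 had a single TSS. The share with an optimal peak was 25.9% over all of them, whatever their number of starts, and the mitochondrial count was near it.

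Of 7 motifs searched on both strands within 100 bp of the summit, the heat shock element (with at most 1 mismatch) was found at 1 of the 28 members with a region, CysRS-m (3.57%), and at 5.34% of the regions of all protein-coding genes. The amino acid response element of ATF4 (TGATGNAA) was found at LeuRS alone, where the region was weak, and at 3.04% of all regions. The TATA box (TATAAAA) was found at 9 members (32.1%), 8 of them cytosolic, and at 14.3% of all regions. None of the 10 TATA matches lay 20 to 40 bp upstream of the gene's own start on its own strand, where a working TATA box is usually found. The mean GC content of the windows was 36.6% over the members and 39.2% over all regions, and its part in the count of this AT-rich motif was not tested.

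The M1BP motif was found at 7 members (25.0%) and at 14.0% of all regions. The cytosolic members with it were GlnRS, HisRS, LysRS and ValRS, and the mitochondrial ones AsnRS-m, AspRS-m and ProRS-m, so that 4 of these 7 had no optimal peak. All 7 matches, including those printed above, lay 15 to 34 bp from the summit. Within 250 bp the shares lay closer, at 32.1% of the members and 25.7% of all regions for M1BP, and at 35.7% and 29.3% for the TATA box. The DREF motif was found at the 4 members shown above (14.3%) and at 9.76% of all regions, and all 4 of them had an optimal peak. Within 250 bp DREF was found at 6 members, among them the mitochondrial PheRS-m. The E-box (CACGTG) was found at LeuRS-m (2.46% of all regions) and the GAGA factor motif (GAGAGAG) at ArgRS-m (2.90%). No match of 1 motif overlapped a match of another.

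Other genes of tRNA charging were mixed. Of 11, 5 had an optimal peak, 5 had a weaker candidate and AIMP2, a scaffold gene of the complex, had none. Among those with a candidate, 5 of 10 had an optimal peak, near the 45.7% among all protein-coding genes with a candidate. The highest was GatA (389.0, ranks of 775, 1028 and 490), which encodes a subunit of the mitochondrial enzyme that makes glutaminyl-tRNA from glutamyl-tRNA. GatC, another subunit gene, had a signal of 141.8, and GatB one of 41.1, which was not optimal. Of the cytosolic phenylalanine enzyme, beta-PheRS had an optimal peak (196.9, ranks of 2968, 2766 and 1361), while alpha-PheRS was below the lowest optimal signal (87.1). The other optimal peaks were at the scaffold gene AIMP1 (137.7) and at Slimp (102.8), which encodes a protein related to the mitochondrial serine enzyme.

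In the amino acid response, all 6 genes had a candidate region, and 4 of the 6 had an optimal peak. Over all protein-coding genes 56.6% had a candidate region at a TSS. Of the genes with such a region 45.7% had an optimal peak, and of all genes 25.9%. These were AsnS, the asparagine synthetase gene (351.7, ranks of 499, 1392 and 768), crc, which encodes the fly ATF4 (144.3), Thor, the gene of the translation inhibitor 4E-BP (140.1), and Gcn2 (115.8). The summits at AsnS, crc and Gcn2 lay 445, 295 and 257 bp upstream of a start, beyond a limit of 200 bp, and that at Thor 33 bp upstream. PEK, the gene of the other kinase that acts on the same initiation factor (73.3), and trbl (46.9) had weaker candidates.

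Ribosomal protein genes differed between compartments as well. Of the 85 cytosolic ribosomal protein genes 71 had an optimal peak (83.5%), and of the 73 mitochondrial ones 40 (54.8%), against 72.2% and 26.7% of the synthetases. In the replicates the cytosolic synthetases differed from the cytosolic ribosomal genes by -21.2 ± 2.21 points and the mitochondrial synthetases from the mitochondrial ribosomal genes by -31.6 ± 9.15 points (SD, n = 3), lower in 3 of 3 replicates in each case (exact permutation test, p = 0.25, adjusted p = 0.3). Translation factor genes had an optimal peak in 24 of 54 cytosolic (44.4%) and 2 of 7 mitochondrial cases (28.6%). The share over all protein-coding genes was 25.9%, near that of the mitochondrial translation factor genes. Of the cytosolic ribosomal protein genes 38.8% stood head to head, and of the mitochondrial ones 72.6%. For the synthetases this was 77.8% and 46.7%, and its part in these counts was not tested.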

How the data were processed

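The authors deposited narrowPeak lists of regions for each of the 3 replicates, for the pooled replicates and for the optimal peaks that passed IDR, in dm6 and in dm3. The signal is the authors' value per region, and its scale differs between lists, so replicates were compared by rank. The deposited −log10 q value was at its ceiling of 4.12 for all 17 optimal members, and it was not used to rank. Which aligner and caller made them is not given in the sources used here, and read depth is unknown. The dm3 lists were not used here.

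Genes and transcript starts came from Ensembl (release 115, annotation 6.54), and sequence came from the RefSeq genome of release 6, whose 6 arms hold every region end. For each protein-coding gene the strongest region with the summit within 500 bp of any annotated transcript start was taken, and the same was done in each replicate list with the limit of rank 5756. Shares have Wilson 95% intervals. Replicates were compared by an exact sign-flip permutation test. Scripts ran in Python 3.11.15 with pandas 2.3.3 and SciPy 1.17.1 and were tested on simulated data. Genes given in full were the 6 cytosolic and 4 mitochondrial members with the highest signal, the 2 optimal members lowest in signal and the 2 highest that were not optimal. The other members were named with their signals. Alternatives changed the distance limit, the threshold, the overlap, the recurrence, the starts and the motif window. The members, the lists and the rules were chosen with earlier results of these data known.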

Additional observations from a re-analysis of the deposited data

How the results depend on the processing

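The counts of genes with an optimal peak, 17 in all, 13 cytosolic and 4 mitochondrial, stayed within 1.5 times of these values with TSS limits of 200 and 1000 bp, with the most upstream start only, with overlap of at least 0.5 of the region and with any overlap of 1 bp, the last chosen after seeing the data. With optimal peaks above their median signal only they fell to 8, 7 and 1. For peaks found among the 5756 strongest of all 3 replicates they were 9, 8 and 1. Without 1 replicate they ranged from 10 to 12, from 8 to 10 and from 1 to 2, and the need to recur in both other replicates is by construction a stricter filter. The cytosolic share was above the mitochondrial share under each of these settings. The difference in the replicates, 41.1 points, was 35.9 and 36.3 with limits of 200 and 1000 bp, 37.8 for the 2878 strongest regions, 23.7 over whole lists and 35.0 to 44.4 without 1 replicate, with no change of sign. The median signal, 140.3 for cytosolic and 78.1 for mitochondrial genes, lay closer between them with a limit of 200 bp. It was then 132.3 in 16 cytosolic and 110.3 in 6 mitochondrial genes. For regions near no other gene's start it was 86.6 in 2 cytosolic and 81.8 in 5 mitochondrial genes. Motif counts depended on the window. Within 50 bp they were 0 for the heat shock element (2.50% of all regions), the E-box (1.20%), the ATF4 element (1.39%) and GAGA factor (1.23%). At this width DREF was at 1 member (3.57%, against 5.89% of all regions), the TATA box at 3 (10.7% against 6.81%) and M1BP at 7 (25.0% against 6.77%). Within 250 bp the heat shock element was at 2 members (7.14% against 13.0%), the E-box at 2 (7.14% against 7.04%), the ATF4 element at 4 (14.3% against 7.26%), DREF at 6 (21.4% against 15.4%), M1BP at 9 (32.1% against 25.7%), the TATA box at 10 (35.7% against 29.3%) and GAGA factor at 1 (3.57% against 8.95%). All 3 samples form 1 group, so no fit with a replicate block between groups applies, and the compartments were compared within each replicate. Depth is unknown, so the absence of a candidate does not show that Hsf was absent.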

Other observations

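Outside the promoters, 11 of the 33 members held 15 further candidate regions inside the gene and more than 500 bp from a TSS of their own. The share of genes with such a region, 33.3%, was close to the 33.2% of all protein-coding genes, and the median gene length was 2760 bp for the members and 2166 bp for all. Of the 15 regions, 1 was an optimal peak, so that 3.03% of the members held one, against 8.36% of all protein-coding genes. It lay in the coding sequence of HisRS (X:18517396-18517811), 2176 bp from the start of the gene and near no other protein-coding start, with a signal of 188.8 (rank 2424), while the region at the HisRS start had a signal of 50.5. It is described because of its value.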
